A study of Arabidopsis thaliana with 6 samples.

Results

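The loci described here had a solid transcript level in wild-type (WT) Arabidopsis thaliana seedlings and a level 2-fold to 4-fold lower in seedlings of the pkl mutant. They were 77 of the 2896 loci in the authors' deposited table. A locus was taken where its WT level was from 50 to below 300 FPKM (a fragment count corrected for the length of the transcript and the size of the library) and its pkl level divided by its WT level was above 0.25 and at or below 0.5. The WT window held 552 loci. Aquaporin (PIP, TIP) and light-harvesting antenna (LHC) genes were to be left out, and 0 of the loci that met both limits were of these kinds. The same 2 values chose the loci and describe them, so every level and fold below is a description and has no test.

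Total RNA had come from 14-day-old seedlings under long days, in 3 libraries of pkl and 3 of WT. Which pkl allele was used, whether the libraries keep strand and whether replicates came from separate plants are not given in the sources used here, so the authors' p-values may measure only technical spread. The table held 1 value per genotype and locus, the authors' group value. No value per library was used, so no SD, n or overlap between libraries can be given, and the depth is unknown. PKL itself (AT2G25170, chromosome 2, positions 10712606 to 10723986, TAIR10) stood at 6.79 FPKM in pkl, against 19.2 FPKM in WT.

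PICKLE (PKL) is a chromatin remodeler of the CHD3 class, which moves nucleosomes with energy from ATP and is known for keeping embryonic genes silent in seedlings. No single process covers the loci described here. Some of them serve the breakdown of amino acids and sugars, the loosening and decoration of the cell wall, lipid binding at the cell surface, redox chemistry and targeted protein turnover. Transcripts of several of these groups, above all those of amino acid and sugar breakdown, are known to rise when plants are short of carbon, in darkness or under stress.

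The 77 loci ran from 14.9 to 113 FPKM in pkl, with a median of 32.2, and from 50.1 to 269 FPKM in WT, with a median of 82.0. Summed, they held 3263 FPKM in pkl and 8069 FPKM in WT, a 2.47-fold difference. The median fold was 2.44, with quartiles at 2.16 and 2.79. Most loci lay near the milder end, as 41 were under 2.5-fold lower, 20 from 2.5-fold to 3-fold and 16 at least 3-fold. Their median log2 fold change was -1.29, beside -0.42 for the 458 loci of the same WT window that were under 2-fold lower and -0.60 for the whole table. Both limits of the rule fix this difference.

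**Figure D1:**
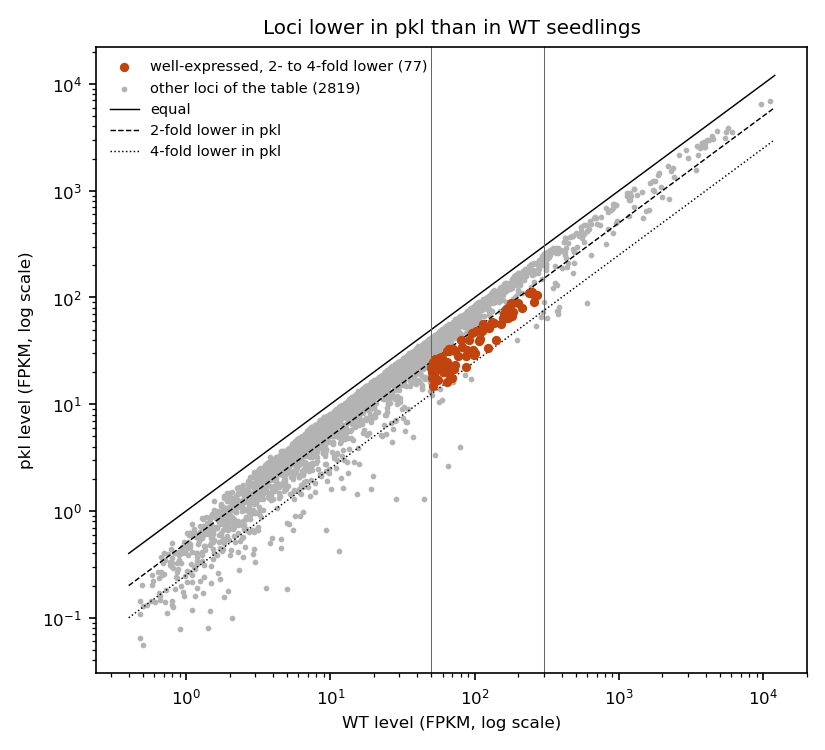
Level in pkl (vertical axis) against level in WT (horizontal axis), both in FPKM on log scales, for the 2896 loci of the authors' deposited table; the 77 loci described here are in orange and the others in grey. The orange loci fill the band between the 2-fold and 4-fold lines from 50 to 300 FPKM in WT, and all loci of the table lie below the line of equal level.

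All loci listed by the authors had passed their threshold and were lower in pkl. In the authors' deposited table, the 2896 lower loci were 14.8% of the 19554 tests that its p-values and q-values imply, and the 748 of them that were at least 2-fold lower were 3.83%. Counts of gene families and lists below are out of all annotated or listed genes, tested or not. The 14.8% has another base and is only a rough guide beside them. All 77 loci passed because the rule drew on this table, and nothing is read from that. For 76 of them the authors' deposited table gave a q-value of 0.000338, which goes with the smallest p-value listed there (5e-05). For the peroxiredoxin gene TPX2 the authors' deposited table gave 0.0272.

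Loci stood close to each limit of the rule on both sides. Just inside the lower WT limit stood AT3G01950 and CYP81F4, at 50.1 and 50.5 FPKM in WT, and just outside it the sucrose transporter gene SUC2 (18.9 FPKM in pkl, 49.2 in WT) and AT2G43550 (16.3 and 48.7). At the upper WT limit, MLP34 and AT5G22920 were inside at 269 and 256 FPKM in WT. The xyloglucan enzyme gene TCH4 (90.4 FPKM in pkl, 304 in WT) and BT1 (123 and 350) were outside. At the 2-fold limit, MSRB9 and LON2 were 2.00-fold and 2.01-fold lower, and PDS1 and the locus of STY46 and AT4G38480 missed it at 1.996-fold each. At the 4-fold limit, AT5G46900 and AT1G21400 were 3.98-fold and 3.93-fold lower, while the wall xylosidase gene BXL1 was 4.07-fold and AT4G22517 4.15-fold lower.

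By product and known role the loci fell into 14 groups, assigned by hand once the loci were known. Cell wall and cell surface held 8 loci, ubiquitin ligase components and proteases 7, and defence and specialized metabolism 7. Lipid transfer, thiol redox and copper proteins, and regulators of transcription and RNA each held 6, and amino acid breakdown and handling held 5. Major latex protein-like genes, sugar metabolism and membrane proteins held 3 each, and cold response and growth 2 each. The other 19 were 9 annotated proteins of mixed kinds and 10 of unknown function.

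**Figure D2:**
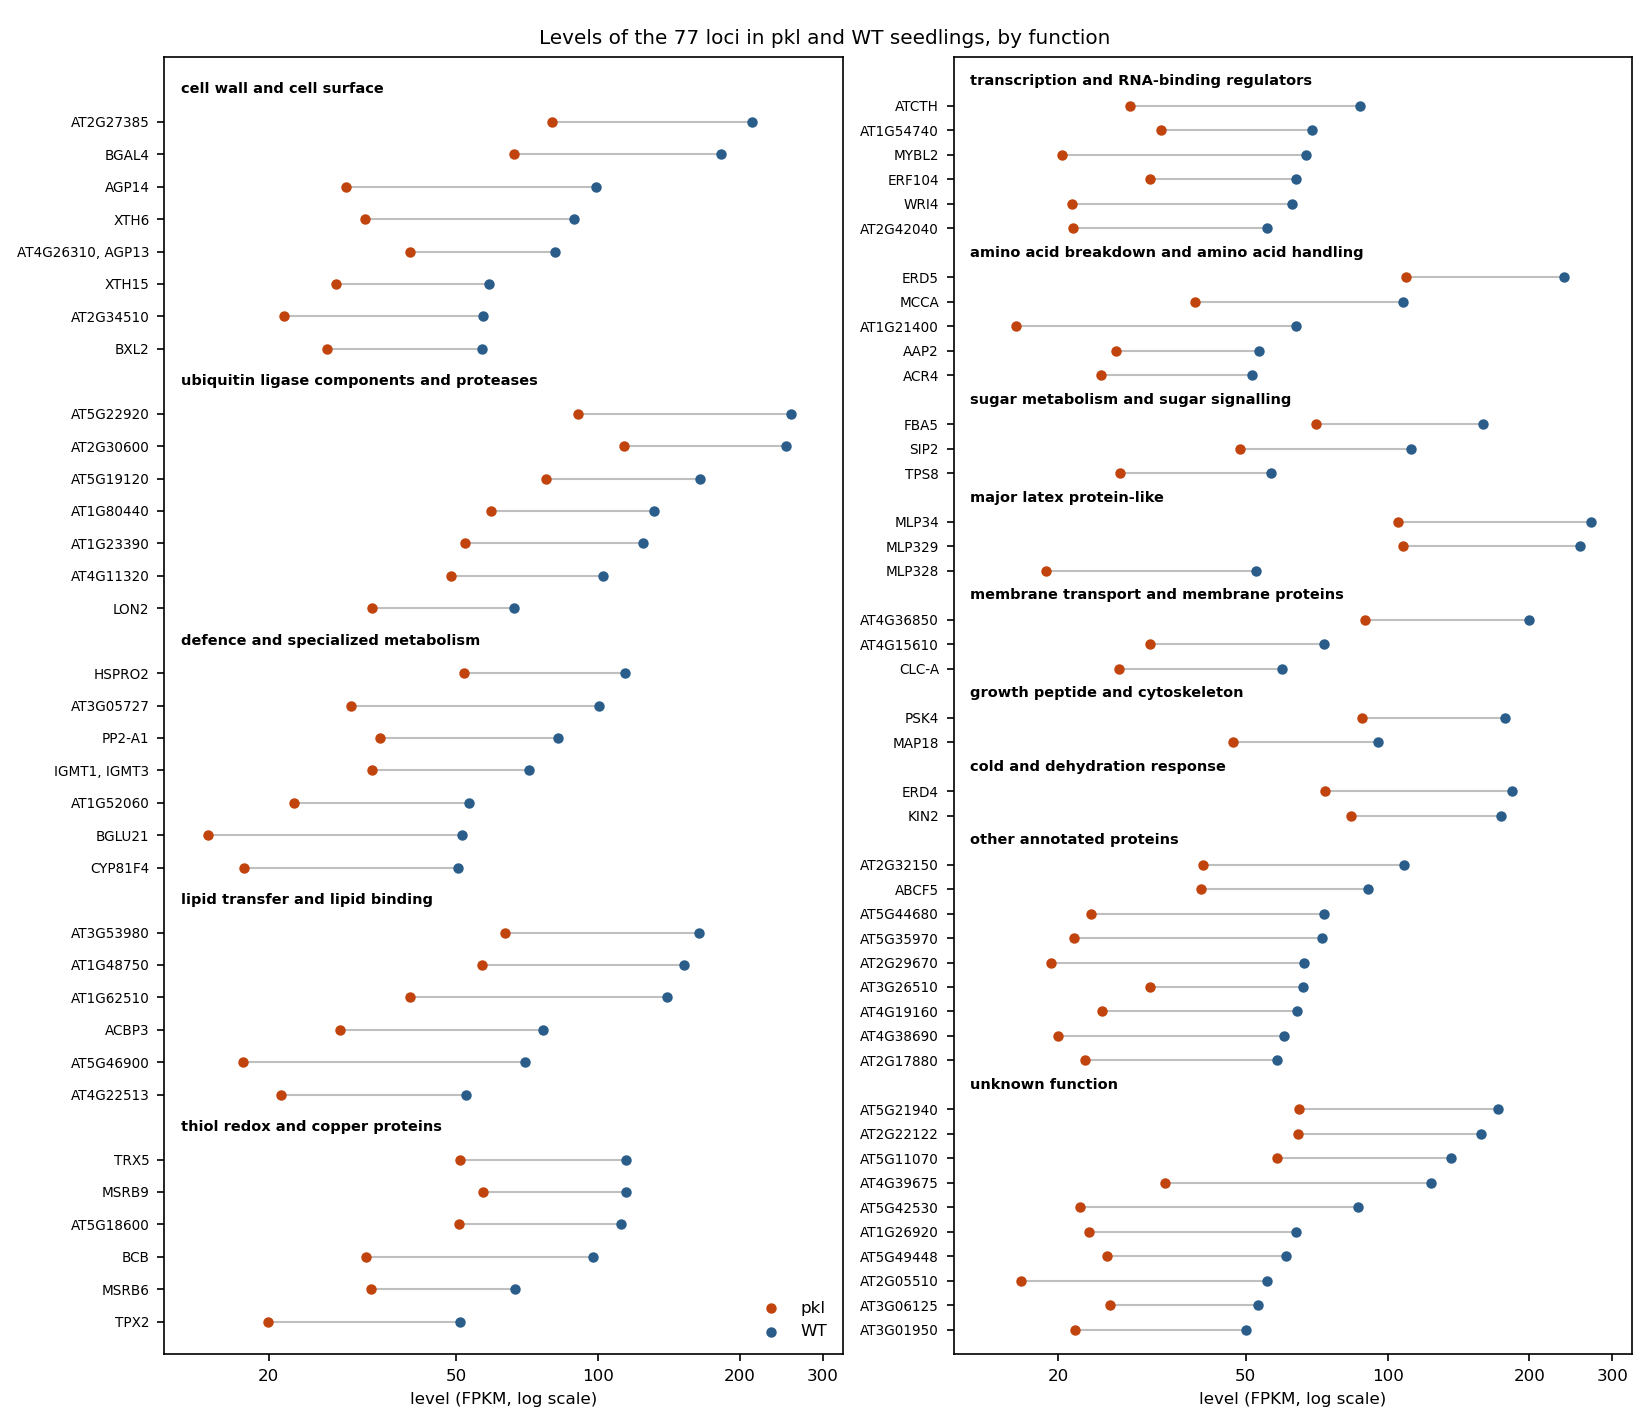
Level in pkl (orange) and in WT (blue) of each of the 77 loci, in FPKM on a log scale, grouped by function and ordered within a group by WT level; each point is the authors' single value for the genotype. All pairs have pkl to the left of WT by construction, and the widest gaps include AT1G21400, AT5G46900 and AT5G42530, each 3.90-fold lower or more.

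The 5 amino acid genes covered breakdown, transport and sensing. ERD5 (AT3G30775, chromosome 3, positions 12448636 to 12451248), which encodes the mitochondrial proline dehydrogenase that starts proline breakdown, had 109 FPKM in pkl and 236 FPKM in WT and was 2.16-fold lower. AT1G21400, an E1 alpha subunit of the branched-chain keto acid dehydrogenase that commits leucine, isoleucine and valine to breakdown, had 16.2 FPKM in pkl and 63.8 FPKM in WT. It was 3.93-fold lower, close to the 4-fold limit. MCCA, the biotin-carrying subunit of the carboxylase that acts later in leucine breakdown, had 39.1 FPKM in pkl and 108 FPKM in WT, 2.75-fold lower. Both leucine genes were thus further apart between the genotypes than ERD5. AAP2, an amino acid permease of the vasculature, had 26.5 FPKM in pkl and 53.2 in WT. ACR4, whose ACT domains bind amino acids in related proteins, had 24.7 and 51.6 FPKM, so these 2 genes lay at 2.01-fold and 2.09-fold lower.

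Much of the branched-chain pathway could be followed in the same table, with a list drawn up once the loci were known. Of 11 genes of branched-chain amino acid breakdown, 9 were in the table, beside 14.8% of all tests. Among the 9 were AT1G21400 and MCCA, 2 of the loci described here. The mitochondrial aminotransferase gene BCAT2, which acts at the head of the pathway, had the largest fold of the list, with 10.6 FPKM in pkl and 56.6 FPKM in WT, 5.34-fold lower. The E2 subunit gene of the dehydrogenase had 21.6 FPKM in pkl and 42.1 in WT, 1.95-fold lower, just short of the rule. The locus with MCCB, the partner subunit of MCCA, had 66.1 FPKM in pkl and 99.5 in WT, and it holds another gene as well. The isovaleryl-CoA dehydrogenase gene IVD, the lyase gene HML1, an E1 beta gene and the locus with DIN4 were 1.29-fold to 1.36-fold lower. The list's median log2 fold change was -0.59, beside -0.60 over the table. The 3 largest folds of the list were those of BCAT2, AT1G21400 and MCCA. For AT1G21400 and MCCA the rule itself required at least 2-fold, so their high rank is largely fixed by it. Of 6 genes of proline metabolism, also listed once the loci were known, ERD5 was the 1 in the table, near the 14.8% of all tests.

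Sugar metabolism gave 3 loci. FBA5, a fructose-bisphosphate aldolase of glycolysis, had 70.6 FPKM in pkl and 159 FPKM in WT, 2.26-fold lower. SIP2 (AT3G57520, chromosome 3, positions 21288761 to 21293158), an alpha-galactosidase that releases galactose from raffinose, had 48.6 FPKM in pkl and 112 FPKM in WT, 2.30-fold lower. TPS8, a protein of the trehalose-phosphate synthase family in the class that is thought to signal sugar status, had 27.0 FPKM in pkl and 56.6 FPKM in WT, 2.1-fold lower. The FBA5 gene overlaps its neighbour FBA7 on the same strand by 109 bases, so some reads could belong to either.

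A wider set of genes is known to respond to carbon starvation and dormancy. A list of 10 such genes was written with earlier results of these data known, so its values are a description and no independent support. Of these 10 genes, 8 were in the table with a median log2 fold change of -1.46, beside -0.60 over the table. TPS8 alone among them met the level and fold rule. SEN1, a marker of darkness and senescence, had 88.7 FPKM in pkl and 598 FPKM in WT, 6.74-fold lower, and ASN1, an asparagine synthetase, had 39.8 and 196 FPKM, 4.94-fold lower. DIN10, of the same family as SIP2, had 318 FPKM in pkl and 818 FPKM in WT, and the dormancy gene DRM1 496 and 948 FPKM. Both were expressed above the WT window. TPS11 was 2.96-fold lower from below the window, at 14.6 FPKM in pkl and 43.3 in WT, and KMD4, at 68.5 and 126 FPKM, missed the 2-fold limit. DIN2 and DIN11 were not in the table and their levels were not analysed here. Among all tests, 14.8% were lower in pkl. Beside that share, sulfate assimilation had 0 of 10 listed genes in the table, starch breakdown 1 of 10, BAM3, and nitrogen assimilation 3 of 11, with a median log2 fold change of -0.39. The lists share genes, as ASN1 is also on the nitrogen list, BCAT2 on the branched-chain list and KMD4 on the KISS ME DEADLY list.

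**Figure D3:**
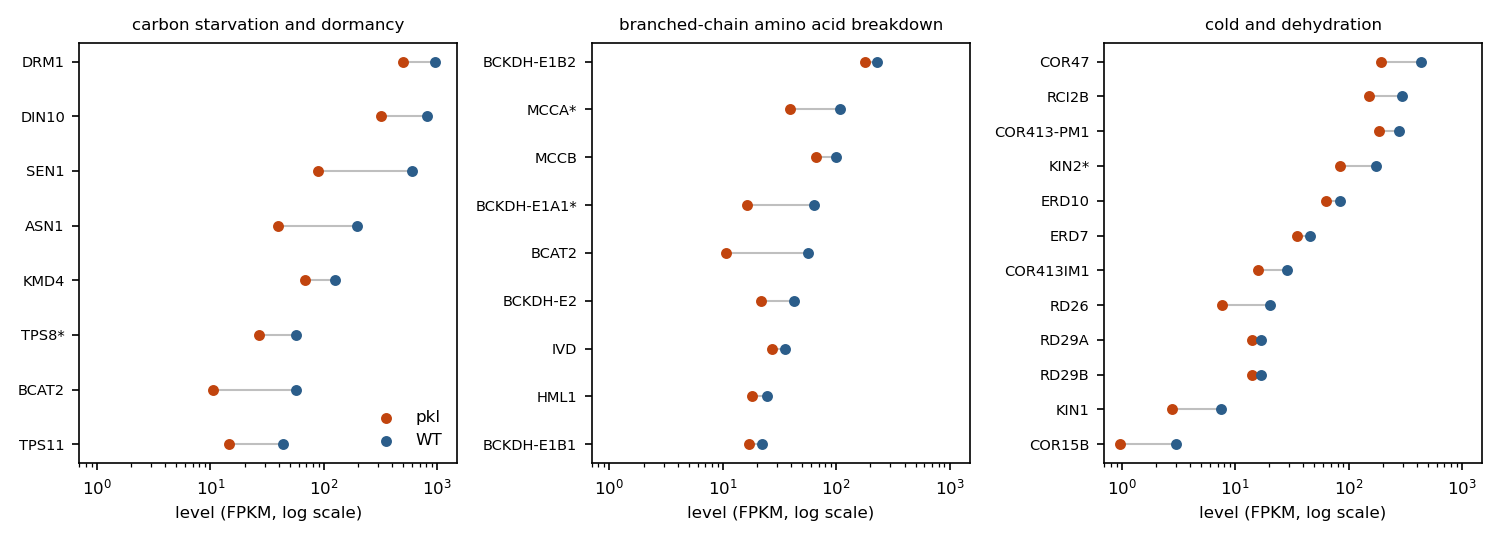
Level in pkl (orange) and in WT (blue), in FPKM on a log scale, of the genes in the table from 3 lists; an asterisk marks a locus of the 77, and BCKDH-E1A1 is AT1G21400 and BCKDH-E1B2 is DIN4. SEN1, ASN1 and BCAT2 show the widest gaps, RD29A and RD29B share 1 locus and so 1 pair of values, and BCKDH-E1B2 and MCCB stand for loci that each hold a further gene.

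The stretch of 120 bases before the annotated start is given for 4 of these genes, because sugar- and energy-responsive genes are a class for which short promoter elements have been described. The bases are RefSeq's, on its TAIR10.1 build, and read toward the gene. ERD5 is shown since the ACTCAT element is known from its promoter, where it serves induction by proline and low osmolarity. Capitals mark matches to the motifs searched.
ERD5: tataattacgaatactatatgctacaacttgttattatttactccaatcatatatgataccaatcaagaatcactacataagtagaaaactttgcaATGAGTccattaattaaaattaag
SIP2: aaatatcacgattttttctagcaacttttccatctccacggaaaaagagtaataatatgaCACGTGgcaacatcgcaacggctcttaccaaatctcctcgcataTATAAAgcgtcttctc
AT1G21400: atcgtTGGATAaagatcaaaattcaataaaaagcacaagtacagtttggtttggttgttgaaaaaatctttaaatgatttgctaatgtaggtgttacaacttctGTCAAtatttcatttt
TPS8: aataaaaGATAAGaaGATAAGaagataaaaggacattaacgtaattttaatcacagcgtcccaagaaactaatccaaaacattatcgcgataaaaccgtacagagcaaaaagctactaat
Distances count from RefSeq's start, which for all 4 genes lies upstream of the locus in the authors' deposited table. For ERD5 that locus ends at 12451248, and for AT1G21400 it begins at 7493426. The ERD5 stretch (chr3:12451557-12451676, minus strand) held ACTCAT on the opposite strand, 24 bases before the start. Whether this match is the element described for its promoter was not tested. The SIP2 stretch (chr3:21293172-21293291, minus strand) held the palindromic G-box CACGTG 60 bases before the start and a TATA-box at 16. The AT1G21400 stretch (chr1:7493093-7493212, plus strand) held TATCCA on the opposite strand at 115, an element known from sugar-starved rice, and the W-box core TTGAC, also on the opposite strand, at 16. The TPS8 stretch (chr1:26474834-26474953, minus strand) held the I-box GATAAG at 113 and again at 105. No motif was common to all 4 stretches.

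The 8 loci of the cell wall and cell surface were 2.03-fold to 3.40-fold lower, with a median of 2.65. AT2G27385, an extensin-like protein with a pollen Ole e 1 domain, was the most abundant at 79.8 FPKM in pkl and 212 FPKM in WT. BGAL4, a beta-galactosidase of the wall, had 66.4 FPKM in pkl and 182 FPKM in WT, 2.74-fold lower. The BGAL4 gene overlaps AT5G56880 on the opposite strand by 909 bases, so part of its reads cannot be assigned without strand. AGP14, a short arabinogalactan peptide anchored at the cell surface, had 29.1 FPKM in pkl and 99.0 FPKM in WT and the largest fold of the group, 3.40. XTH6 and XTH15 encode enzymes that cut and rejoin xyloglucan chains. XTH6 had 31.9 FPKM in pkl and 88.9 in WT, and XTH15 27.7 and 58.6 FPKM. BXL2, a beta-xylosidase, had 26.6 FPKM in pkl and 56.8 in WT, and AT2G34510, a wall protein of the DUF642 family, 21.5 and 56.8 FPKM. The locus of AT4G26310 and AGP13, at 39.8 FPKM in pkl and 80.9 in WT, joins an elongation factor P gene with an arabinogalactan peptide gene, and its value cannot be split between them.

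The families of these wall genes had medians under 2-fold in the table, beside 1.52-fold over all its loci. Of 29 xyloglucan endotransglucosylase/hydrolase genes, 7 were in the table with a median of 1.80-fold, 3 of them at least 2-fold lower. Of 30 arabinogalactan protein genes, 9 were in the table with a median of 1.57-fold, 4 of them at least 2-fold lower. Beta-galactosidases had 4 of 31 genes in the table with a median of 1.5-fold, and BGAL4 was the 1 that was at least 2-fold lower. These counts stand beside 14.8% of all tests. They include XTH6, XTH15, AGP14, BGAL4 and the locus of AGP13, for which the rule itself required at least 2-fold.

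Lipid transfer proteins are small secreted proteins that carry lipids outside the cell, as for cutin and wax. The 6 loci of lipid transfer and binding were 2.47-fold to 3.98-fold lower, with a median of 2.69. AT3G53980 had 63.5 FPKM in pkl and 164 FPKM in WT, and AT1G48750 had 56.8 and 152 FPKM. AT1G62510 had 39.9 FPKM in pkl and 140 FPKM in WT, 3.51-fold lower. All of these had over 100 FPKM in WT, and the rest of the group was below that. AT5G46900 (chromosome 5, positions 19039701 to 19040402) had 17.6 FPKM in pkl and 70.1 FPKM in WT, the largest fold of all 77 loci at 3.98. AT4G22513 had 21.2 FPKM in pkl and 52.3 in WT, 2.47-fold lower. ACBP3, which binds acyl-CoA esters and is not of the lipid transfer family, had 28.3 FPKM in pkl and 76.4 in WT.

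AT5G46900 and AT4G22513 both have near-identical copies. AT5G46900 is 97.4% identical in coding sequence to its neighbour AT5G46890, which had 3.94 FPKM in pkl and 79.3 FPKM in WT, 20.1-fold lower. AT4G22513 is 95.7% identical to AT4G22517, at 13.9 FPKM in pkl and 57.8 in WT, and lies wholly over AT4G22510 on the opposite strand. Reads of these genes cannot be assigned with certainty. Of 106 genes annotated in the lipid-transfer and 2S albumin superfamily, 23 loci were in the table, beside 14.8% of all tests. Their median was 2.57-fold, beside 1.52-fold over the table, and 13 of them were at least 2-fold lower. The 5 described here were among those 13 because the rule required at least 2-fold, so both the count and the median depend in part on the rule.

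Major latex protein-like (MLP) genes encode small proteins with the fold of the birch allergen Bet v 1, which binds hydrophobic molecules. MLP34 (AT1G70850, chromosome 1, positions 26714866 to 26716829) had the highest WT level of the 77 loci, with 105 FPKM in pkl and 269 FPKM in WT, 2.56-fold lower. MLP329 had 108 FPKM in pkl and 256 FPKM in WT, 2.38-fold lower, and its neighbour MLP328 had 18.8 and 52.5 FPKM, 2.79-fold lower. Of the 9 genes annotated as MLP-like proteins, these 3 were in the table, beside 14.8% of all tests. All 3 are loci described here, so the rule itself put them in the count, and it holds no further gene. MLP328 and MLP329 share 89.9% of their coding sequence and were the only pair of the 77 loci in adjacent genes. MLP329 was the higher of the pair in both genotypes. The 120 bases before their starts are given to show how 2 adjacent copies of like coding sequence differ upstream, with motif matches in capitals.
MLP329: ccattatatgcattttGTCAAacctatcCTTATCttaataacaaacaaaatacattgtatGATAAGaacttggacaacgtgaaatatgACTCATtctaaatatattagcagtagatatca
MLP328: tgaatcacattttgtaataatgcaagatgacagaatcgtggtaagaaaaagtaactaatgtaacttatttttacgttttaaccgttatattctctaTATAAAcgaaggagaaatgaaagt
The MLP329 stretch (chr2:239549-239668, plus strand) held the W-box core at 104 bases before the start, I-boxes at 92 and 60 and ACTCAT at 32. The MLP328 stretch (chr2:235805-235924, plus strand) held a TATA-box at 24 and none of the motifs found in that of MLP329.

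Of the 6 loci of redox chemistry, 5 encode proteins of thiol-based reactions and 1 a copper protein. TRX5, an h-type thioredoxin of the cytosol, had 50.8 FPKM in pkl and 114 FPKM in WT, 2.25-fold lower. MSRB9 and MSRB6, which reduce oxidized methionine in proteins, had 57.0 and 33.0 FPKM in pkl, against 114 and 66.7 FPKM in WT, and both lay at the 2-fold limit. Of the 9 genes annotated as methionine sulfoxide reductase B, 4 were in the table, beside 14.8% of all tests, with MSRB9 and MSRB6 among them by the rule. These 4 were 1.27-fold to 2.02-fold lower. AT5G18600, of the glutaredoxin-like CC type, had 50.8 FPKM in pkl and 112 FPKM in WT. BCB, a blue copper protein of the cell surface, had 32.2 FPKM in pkl and 97.7 FPKM in WT and the largest fold here, 3.03. TPX2, a peroxiredoxin, had 19.9 FPKM in pkl and 50.9 in WT. Its coding sequence is 96.3% identical to that of AT1G60740, and it had the weakest q-value of the 77 loci.

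Targeted protein turnover was represented by 7 loci, 2.01-fold to 2.83-fold lower with a median of 2.21. AT5G22920 (chromosome 5, positions 7664991 to 7667265), a RING-type zinc finger ubiquitin ligase known from abscisic acid and drought responses, had 90.5 FPKM in pkl and 256 FPKM in WT. It had the largest fold of the group and the next WT level below MLP34. AT2G30600, a BTB/POZ protein of the type that can bring substrates to cullin ligases, had 113 FPKM in pkl and 251 FPKM in WT, the highest pkl level of all. AT1G80440, or KMD1, is an F-box protein that removes type-B cytokinin response regulators and phenylalanine ammonia-lyase. It had 59.2 FPKM in pkl and 131 FPKM in WT. AT1G23390, an F-box protein that targets chalcone synthase, had 52.2 FPKM in pkl and 125 FPKM in WT. Of 139 annotated kelch repeat F-box genes, 7 (5.04%) were in the table, beside 14.8% of all tests. The 139 may include genes that were not tested, so these shares cannot be compared directly. AT1G80440 and AT1G23390 were the 2 of them at least 2-fold lower, as the rule required of both. Among the 4 KISS ME DEADLY genes, listed once the loci were known, KMD1 and KMD4 were in the table.

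The proteases had a narrower range. AT5G19120, an aspartyl protease-like protein, had 77.3 FPKM in pkl and 164 FPKM in WT, 2.12-fold lower. AT4G11320, a papain-type cysteine protease, had 48.7 FPKM in pkl and 103 FPKM in WT, 2.11-fold lower. LON2, the Lon protease of peroxisomes, had 33.1 FPKM in pkl and 66.3 FPKM in WT, 2.01-fold lower.

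The 6 regulators had WT levels below 100 FPKM. ATCTH, a tandem zinc finger protein that binds RNA, had 28.4 FPKM in pkl and 87.3 FPKM in WT, 3.08-fold lower. MYBL2, a repressor of anthocyanin synthesis, had the largest fold, with 20.4 FPKM in pkl and 67.2 FPKM in WT. Of the 15 listed genes of flavonoid and anthocyanin synthesis, the other 1 in the table was MYB12, at 1.19 FPKM in pkl and 2.17 in WT. With 2 of 15 genes listed, the pathway stood near the 14.8% of all tests that were lower. WRI4, an AP2 factor of cuticular wax synthesis, had 21.4 FPKM in pkl and 62.5 FPKM in WT, and ERF104, an ethylene response factor of defence, 31.3 and 63.8 FPKM. AT1G54740, a FANTASTIC four-like protein, had 33.0 FPKM in pkl and 69.0 in WT, and AT2G42040, a WRC domain protein, 21.5 and 55.5 FPKM.

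Defence and specialized metabolism gave 7 loci, 2.15-fold to 3.45-fold lower with a median of 2.39. Glucosinolates are sulfur-rich defence compounds of the cabbage family, and 2 of the loci modify those made from tryptophan. CYP81F4, a cytochrome P450 that hydroxylates the indole ring, had 17.7 FPKM in pkl and 50.5 FPKM in WT, 2.85-fold lower. The locus of IGMT1 and IGMT3, which methylate hydroxylated indole glucosinolates, had 33.1 FPKM in pkl and 71.2 FPKM in WT. Nearby IGMT4 had 110 FPKM in pkl and 212 FPKM in WT, 1.93-fold lower, just short of the rule. The list of indole glucosinolate modification was drawn up once the loci were known. Of its 9 genes, 5 were in the table in 4 loci, beside 14.8% of all tests. The other 1 was CYP81F2, at 1.74 FPKM in pkl and 2.49 in WT. IGMT3 is 97.4% identical to IGMT2, and CYP81F4 is overlapped by AT4G37409 on the opposite strand over 2140 bases, so neither value can be assigned with certainty. Of 7 genes of glucosinolate breakdown, 4 were in the table, beside 14.8% of all tests, and none met the rule. TGG1, the main leaf myrosinase, had 252 FPKM in pkl and 637 FPKM in WT and lay above the window.

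The other defence loci were of unrelated families. HSPRO2, named for a nematode resistance protein of sugar beet, had 51.9 FPKM in pkl and 114 FPKM in WT, 2.19-fold lower. AT3G05727, annotated with small pollen coat-like secreted proteins, had 29.9 FPKM in pkl and 100.3 FPKM in WT, 3.35-fold lower. PP2-A1, a lectin of phloem sap, had 34.4 FPKM in pkl and 82.0 FPKM in WT. AT1G52060, a jacalin-type lectin, had 22.7 FPKM in pkl and 53.1 in WT, and its neighbour AT1G52070 had 79.2 and 107 FPKM. BGLU21, a beta-glucosidase known from roots, had 14.9 FPKM in pkl and 51.3 FPKM in WT, the lowest pkl level of the 77 loci. All 6 root markers looked up were also in the table, beside 14.8% of all tests. The markers were chosen with earlier results of these data known, so this count is a description and no independent support. IRT1, CASP1 and THAS were 2.04-fold, 1.94-fold and 1.91-fold lower, and COBL9, CASP2 and PHT1;1 1.61-fold, 1.39-fold and 1.30-fold lower. Their part in these results was not tested. In whole seedlings, fewer cells of a type and less RNA per cell cannot be told apart.

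Smaller groups completed the characterized loci. ERD4, an early-dehydration membrane protein, had 73.6 FPKM in pkl and 184 FPKM in WT, 2.5-fold lower. KIN2, a cold-induced small hydrophilic protein, had 83.7 FPKM in pkl and 174 FPKM in WT, 2.08-fold lower, and it is 95% identical to KIN1, so reads cannot be assigned with certainty. KIN1 was far less abundant, at 2.79 FPKM in pkl and 7.45 in WT. Of 18 listed genes of cold and dehydration, 12 were in the table in 11 loci, beside 14.8% of all tests. These loci were 1.20-fold to 3.10-fold lower. PSK4, a precursor of the growth peptide phytosulfokine, had 88.4 FPKM in pkl and 178 FPKM in WT, 2.01-fold lower. MAP18, which destabilizes microtubules, had 47.0 FPKM in pkl and 95.5 FPKM in WT, 2.03-fold lower. Both growth genes lay close to the 2-fold limit. CLC-A, which loads nitrate into the vacuole, had 26.9 FPKM in pkl and 59.7 in WT. The membrane proteins AT4G36850, with PQ-loop repeats, and AT4G15610, related to Casparian strip membrane proteins, had 89.5 and 31.4 FPKM in pkl, against 199 and 73.4 FPKM in WT.

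The 9 other annotated proteins spanned 19.3 to 40.5 FPKM in pkl and 58.1 to 108 FPKM in WT, with a median of 2.68-fold. AT2G29670, with tetratricopeptide repeats, had the largest fold here, at 19.3 FPKM in pkl and 66.3 FPKM in WT, 3.44-fold lower. AT5G35970, a P-loop nucleoside triphosphatase, had 21.6 FPKM in pkl and 72.4 FPKM in WT, 3.35-fold lower. A DNA glycosylase-like protein (AT5G44680) and a phospholipase C-like phosphodiesterase (AT4G38690) were 3.11-fold and 3.01-fold lower. The remaining 5 were the hydrolase AT2G32150, the ABC protein gene ABCF5, AT3G26510 with a Phox/Bem1p domain, the transglutaminase-like AT4G19160 and the DnaJ-domain protein AT2G17880. They were 2.12-fold to 2.68-fold lower.

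The 10 loci of unknown function reached some of the largest folds. AT5G42530 had 22.2 FPKM in pkl and 86.5 FPKM in WT, 3.90-fold lower, and AT4G39675 had 33.7 and 124 FPKM, 3.66-fold lower. The glycine-rich protein AT2G05510 had 16.7 FPKM in pkl and 55.4 FPKM in WT, 3.32-fold lower. These 3 encode short proteins, with coding sequences of 216, 213 and 384 bases. AT5G21940, AT2G22122 and AT5G11070 were the most abundant, with 64.8, 64.6 and 58.2 FPKM in pkl, against 171, 158 and 136 FPKM in WT. AT1G26920, the non-coding transcript AT3G06125, AT3G01950 and AT5G49448 were 2.06-fold to 2.75-fold lower. AT5G49448 was the 1 locus without a RefSeq entry, so no product or strand is given for it.

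Gene structure and annotated location were not used by the rule. Of the 73 that hold a single nuclear protein-coding gene, 23 (31.5%) had a coding sequence under 500 bases. That share was 15.3% in the 412 such genes of the same WT window that were under 2-fold lower, 12% over the table and 19.2% over 27444 nuclear protein-coding genes. Genes of 1 exon made up 26.0% of the 73, against 16.7% of the less changed genes, 18.5% over the table and 20.5% over nuclear protein-coding genes. An annotation note placed 24.7% of the 73 in the endomembrane system, wall or extracellular space, against 13.1% of the less changed genes, 16.2% over the table and 15.7% over nuclear protein-coding genes. The chloroplast was named for 8.22% of the 73, against 29.4% of the less changed genes, 14.4% over the table and 9.68% over nuclear protein-coding genes, so it was close to the share in the genome. The 12 loci of the same WT window that were at least 4-fold lower had shares of 41.7% for short coding sequences, 50% for 1 exon, 33.3% for secretion and 8.33% for the chloroplast. None of these traits is therefore particular to the loci described here, and the shares are descriptions without a test. Antenna genes had been left out of both sets, and location notes were present for 47.9% of the 73 and 65.0% of the less changed genes. Among genes with a note, secretion was named for 51.4% and 20.1%. It was named for 30.5% over the table, 33.0% over nuclear protein-coding genes and 66.7% of the 6 noted genes at least 4-fold lower.

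**Figure D4:**
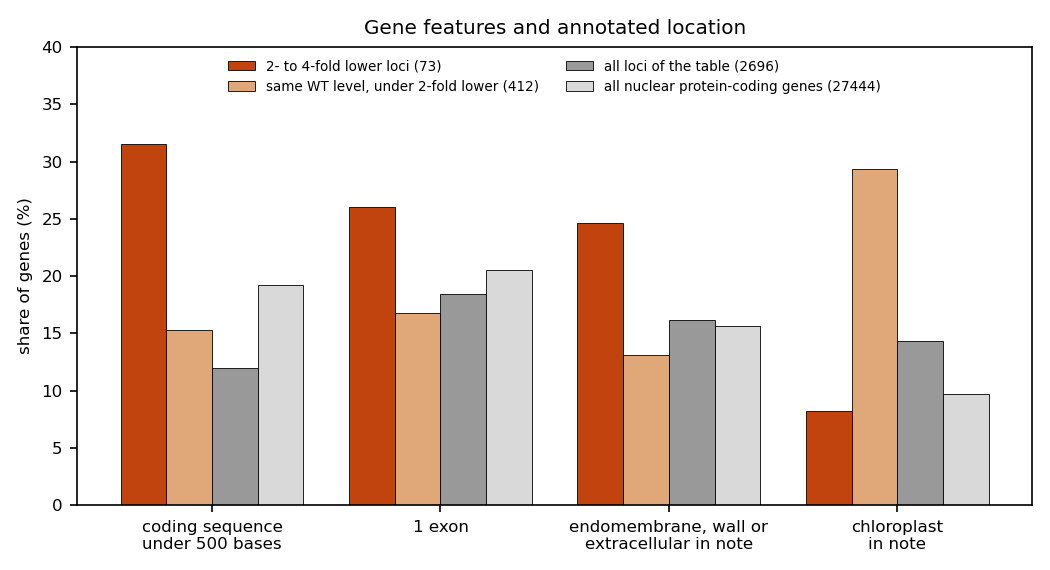
Share of genes (vertical axis, percent) with a coding sequence under 500 bases, with 1 exon, and with an annotation note naming secretion or the chloroplast, for 73 of the 77 loci, 412 genes of the same WT window under 2-fold lower, 2696 genes of the table and 27444 nuclear protein-coding genes. The 73 have the tallest bar in the categories of short coding sequence, 1 exon and secretion, and the shortest bar for the chloroplast.

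The loci were spread over the genome, with 20 on chromosome 1, 13 on chromosome 2, 8 on chromosome 3, 15 on chromosome 4 and 21 on chromosome 5. Of the 75 loci placed in the order of annotated genes, 30 (40%) lay next to another gene of the table. The share was 25.5% of the 458 less changed loci, 27.3% over the table and 58.3% (7 of 12) of the loci of the same WT window at least 4-fold lower. Some of these neighbours overlap the locus, as AT4G19830 does PP2-A1, or are near-identical copies, as KIN1 is of KIN2. Reads of such pairs cannot be assigned with certainty, so they may not be separate lower genes. AGP14 lay next to OXS3, which had 4.45 FPKM in pkl and 26.8 FPKM in WT, 6.02-fold lower. MSRB6 lay next to MSRB5, at 60.1 FPKM in pkl and 109 FPKM in WT, 1.82-fold lower. Neighbours were thus sometimes related genes and sometimes not. In all, 17 loci overlapped another annotated gene, 16 of them on the opposite strand, where reads cannot be told apart without strand. AT1G48750 and AT3G01950 lay under such a gene over 544 and 545 bases, their whole longest transcripts, and AT1G62510 over 535 bases. XTH15, AT3G26510, AT2G30600, CLC-A, PP2-A1, TPX2, AT5G21940, ACBP3, MCCA and WRI4 also had an opposite neighbour over part of their length.

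Promoters from 250 bases before to 50 bases after the annotated start were searched on both strands for 11 motifs, in 77 promoters of the genes in these loci. None of the motifs contains another, though TATCCA and GATAAG can share bases. The TATA-box TATAAA was present in 67.5% of them, against 52.6% for the less changed genes, 56.5% over the table and 52.1% over all nuclear protein-coding genes. The I-box GATAAG, an element of light-regulated promoters, was in 24.7%, against 18.6%, 18.9% and 14.6% in the same order. ACTCAT, which like TATCCA was added to the search once the loci were known, was in 20.8%, against 13.8%, 14.2% and 14.7%. TATCCA was in 24.7%, against 27.1%, 20.4% and 16.1%. The core of the cold and drought element, CCGAC, was in 10.4%, against 17.2%, 14.0% and 15.0%, and the G-box CACGTG was in 6.49%, against 10.9%, 9.67% and 7.68%. The W-box core TTGAC was in 45.5%, against 46.8%, 49.4% and 50.5%, and the GA repeat GAGAGA in 22.1%, against 24.7%, 25.3% and 29.2%. The evening element AAAATATCT was in 6.49%, against 6.72%, 4.39% and 2.82%. The GCC-box GCCGCC was in 3.90%, against 1.38%, 1.66% and 2.57%, and the telo-box AAACCCTA in 3.90%, against 2.77%, 3.65% and 6.22%. A match is a run of letters and not a shown binding site. Only the TATA-box was present in most of these promoters, and it was also in most promoters of each comparison set. In the 250 bases before the start alone it was in 54.5%, against 45.8%, 50.4% and 47.3% in the same order.

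**Figure D5:**
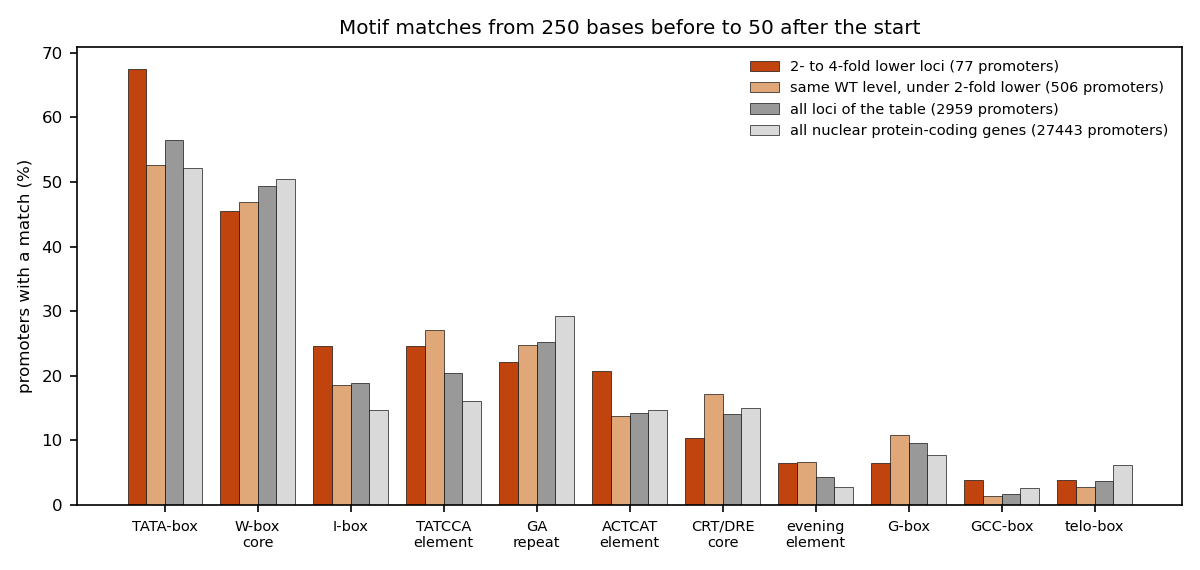
Share of promoters (vertical axis, percent) that hold each of 11 motifs on either strand, for 77 promoters of the loci described here, 506 of genes in the same WT window under 2-fold lower, 2959 of the table and 27443 of all nuclear protein-coding genes. The TATA-box bar of the loci described here, at 67.5%, stands above the other 3, and their CRT/DRE core bar, at 10.4%, stands below them.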

How the data were processed

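Per the submitters' processing notes, TopHat, Cufflinks 2.1.1, Cuffdiff 2.1.1 and the TAIR10 build had been used. The deposited table held FPKM, 1 value per genotype, as made by the authors. It also held the authors' log2 fold change, test statistic (a score, not used), p-value and q-value, per the file headers. Each locus listed was lower in pkl, so genes that were higher there were not analysed here. Where a locus held several genes its value is the locus's.

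The loci, gene lists, root markers, function groups and motifs were chosen with earlier results of these data known, and 4 lists and 2 motifs were added once the loci were known. Fold and level came from the FPKM columns with Python 3.11.15 and pandas 2.3.3, with no pseudocount. The rule for naming let every locus be named, larger groups in order of level. The number of tests was recovered from p and q as the count that brings every rank to a whole number, with a tolerance of 0.017. That step was checked on simulated tables. Gene structure, location notes and promoters came from RefSeq TAIR10.1, in which 76 of the 77 loci had an entry and all 76 overlapped it. Near-identical copies had at least 95% identity over at least 80% of the coding sequence (BLAST+ 2.17.0). Table starts are printed counted from 1. With 1 value per genotype, no test, error or depth could be computed. Alternatives changed the limits, the pseudocount, the q-value, the loci kept and the promoter window.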

Additional observations from a re-analysis of the deposited data

How the results depend on the processing

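The number of loci stayed within 1.5-fold of 77 under wider fold limits (105), a wider WT window (99), a pseudocount of 0.1 (77) or 1 (74), a q-value of at most 0.01 (76) and without loci of several genes (75). A minimum of 30 FPKM in pkl left 43, as it removes by construction the loci lowest in pkl. The median log2 fold change of -1.29 became -1.26 with a pseudocount of 1, -1.27 at the stricter q-value, -1.30 without loci of several genes and -1.27 without genes with a near-identical copy. Without such genes the cold and dehydration group held 1 locus in place of 2, because KIN2 was removed, and the other 13 groups stayed within 1.5-fold in the 3 alternatives run on them (the stricter q-value, and without loci of several genes or near-identical copies). The TATA-box share fell from 67.5% to 54.5% in the 250 bases before the start alone, the largest shift among the 11 motif shares recomputed. In those bases the less changed genes had 45.8%, with 50.4% over the table and 47.3% over all nuclear protein-coding genes. With the 50 bases after the start included, the share over the table was 56.5%, so the gap to it narrowed without them. None of the 154 values of single loci recomputed with the pseudocounts changed sign, and the largest shift was 0.07 on the log2 scale. The loci lie in a band set by the authors' values, so this stability says nothing about replicates. No paired analysis was possible because each genotype has a single combined value, and leaving out each replicate was not run for the same reason. The depth of the libraries is unknown, so the precision of these FPKM cannot be stated.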
